A study of Ovis aries with 6 samples.

Results

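The miRNAs that mark white blood cells and their inflammatory responses were examined in longissimus muscle, the long muscle of the back, of 2 sheep breeds, Qianhua Mutton Merino (abbreviated QHMM) and, as the breed it was set against, Small Tail Han (STH). Members were taken by name: every listed miRNA called miR-142, miR-142a, miR-150, miR-155, miR-223, miR-146a or miR-146b, with or without its arm, once the species prefix was removed. This gave 13 of the 10430 names in the deposited table, on 25 of its 11161 rows, and a name on several rows was read from the row with most counts. No row carried the name miR-142a. The design holds 3 libraries of each breed, from animals kept under natural conditions with no treatment other than breed, and the labels give neither age nor sex. The labels do not say that the libraries of a breed are from different animals, so p-values measure only the spread between these samples, which may be technical. The total count ran from 8062231 to 10276427 in QHMM libraries and from 8681817 to 11282332 in STH libraries.

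White blood cells carry some miRNAs, such as miR-142, that other cells of muscle hardly make. A piece of whole muscle holds white blood cells in its vessels and connective tissue. Which cells made each member was not measured. In human and mouse, miR-142 is made by blood cells of nearly all lineages, miR-223 is abundant in neutrophils, monocytes and platelets, and miR-150 accumulates in mature lymphocytes. miR-155 is induced when lymphocytes and macrophages are activated and promotes the response, while miR-146a and miR-146b are induced by the factor NF-kB and dampen signalling through the adaptors TRAF6 and IRAK1. In bulk muscle, more cells of a type and more of a miRNA per cell cannot be told apart.

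The sequences of the 6 most abundant members, with the forms needed to compare the miR-146 rows, are shown first, because the seed (bases 2 to 8 from the 5′ end, in capitals) determines which messages a miRNA recognises. They are the deposited sequences, written as DNA letters.
miR-150: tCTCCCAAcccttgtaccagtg
miR-142-3p: tGTAGTGTttcctactttatgga
miR-142-5p: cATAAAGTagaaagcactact
miR-223-3p: tGTCAGTTtgtcaaatacc
miR-155-5p: tTAATGCTaatcgtgatagggg
miR-146b-5p, chromosome 5 loci: tGAGAACTgaattccataggt
miR-146b-5p, chromosome 22 locus: tGAGAACTgaattccataggctg
miR-146a-5p, rat and human name: tGAGAACTgaattccatgggtt
The 3 miR-146 sequences share the seed GAGAACT, and each of the other sequences has a seed of its own. The seeds of both miR-142 arms, of miR-223-3p and of miR-155-5p occurred only in rows with a member name. The seed of miR-150 also occurred in 3 rows with other names, which held 4 counts in all, and that of the miR-146 sequences in 1 row with another name, which held 3 counts.

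The name miR-146b-5p stood for several loci. It was given to a predicted locus on chromosome 22, whose other arm is listed as miR-146b-3p, and to a pair of predicted loci on chromosome 5, of which 1 has its other arm listed as miR-146a-3p (chromosomes as in the locus names, build Oar_v3.1 in the submitters' processing notes, no start or end given). The chromosome 5 pair carried the same 21 nt, and this sequence differed from that of the chromosome 22 locus by T21C and from the rat miR-146a-5p by A18G, with positions counted from 1 at the 5′ end. Its first 20 nt were those of the chromosome 22 locus, so that shorter reads cannot be assigned to 1 of them. The row that stood for miR-146b-5p by its total, 1486 counts, was on chromosome 5, and the rat name miR-146a-5p held 2 counts. A level for miR-146a apart from miR-146b can therefore not be given by name.

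The name miR-142-3p also stood on 3 rows, of which the 2 at predicted loci on chromosomes 10 and 12 held 247 and 23 counts against 15655 in the row used here. miR-150 was the only member under a sheep name. Its sequence was also listed as miR-150-5p of rat, mouse and human, yet these 3 rows held 7 counts against 36882 under the sheep name, so reads of miR-150 had not been repeated at every identical row. miR-142-3p and miR-142-5p were listed under rat names, miR-223 at a predicted locus on chromosome X and miR-155 at a predicted locus on chromosome 1. The miR-223-3p row used was 19 nt long. The listed rat and human rows of that name, of 21 and 22 nt, held 1 and 2 counts. The miR-223-5p row used had the seed TATTTGA. The listed rat and human rows of miR-223-5p had the seed GTGTATT and held 3 and 1 counts.

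Members took a small share of the muscle miRNAs, between 0.183% and 0.200% of the counts in QHMM libraries and between 0.1215% and 0.150% in STH libraries. Levels are given as CPM, counts scaled to a common library size after summing each library over all names. miR-150 was the most abundant member at 877 ± 169 CPM (SD, n = 6), 73rd of all names. miR-142-3p followed at 374 ± 155 CPM and miR-142-5p at 169 ± 54.9 CPM. miR-223-3p had 159 ± 72.6 CPM, with a range over the libraries that spanned that of miR-142-5p, so that these neighbours in the order did not differ beyond their spread. miR-146b-5p had 36.3 ± 13.7 CPM and miR-155-5p 26.02 ± 7.11 CPM, again with overlapping ranges for the single row that stood for miR-146b-5p. The 3 rows of that name summed to 98.8 ± 37.4 CPM, at least 68.5 CPM in every library, against a highest miR-155-5p level of 40.0 CPM. That sum may hold the same reads more than once, as the chromosome 5 pair in it carries the same sequence. miR-223-5p was the least abundant member with a count above 10 in every library, at 3.43 ± 0.782 CPM. The order between different sequences also depends on how well each is captured in a library, which was not measured.

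The remaining 6 names were at the limit of detection. miR-146b-3p had 11 counts over all libraries, miR-146a-3p and miR-150-5p had 4 each, miR-155-3p had 3, miR-146a-5p 2 and miR-150-3p 1. A library without a count allows up to 3 counts, between 0.378 and 0.538 CPM at these depths, for counting error only. These 6 names did not pass the filter on low counts and were not tested.

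**Figure D1:**
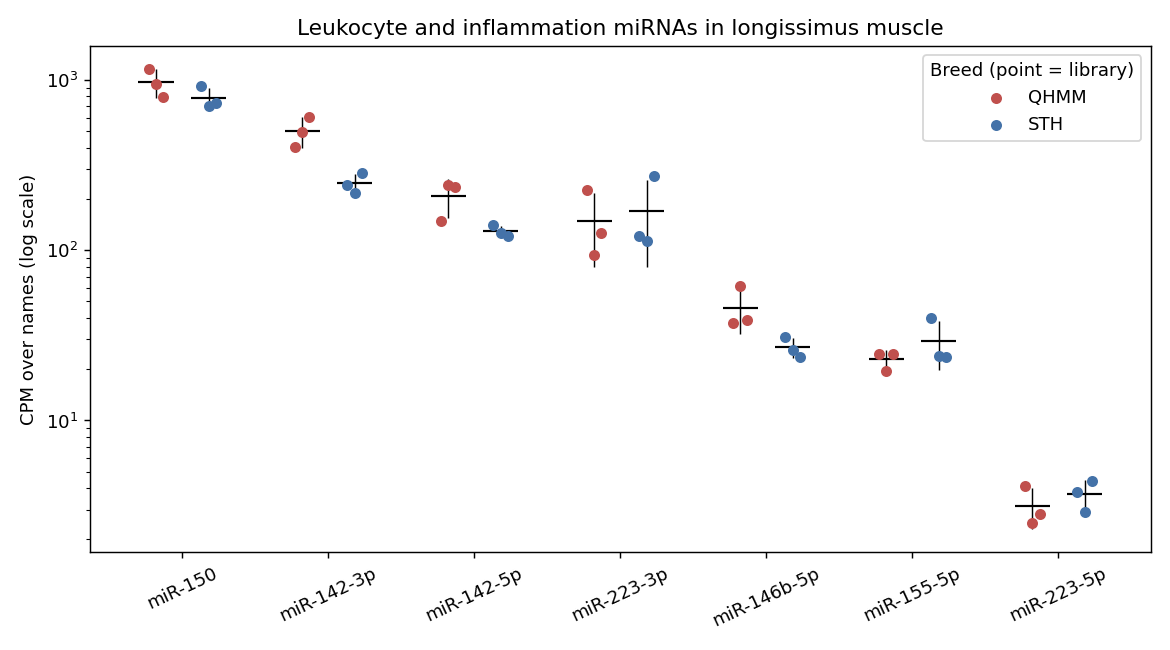
CPM (log scale) of the 7 tested members in longissimus muscle, QHMM left and STH right of each pair. Points are single libraries, horizontal marks the mean and vertical bars the SD of 3 libraries. QHMM points lie above all STH points for miR-142-3p, miR-142-5p and miR-146b-5p and overlap with them for the others.

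The breeds were compared over all names with edgeR, and 0 of the 7 tested members passed an adjusted p of 0.05. Among all 1274 names tested, 28 passed (2.20%), with 0.314% higher in QHMM and 1.88% higher in STH. The 7 members each had at least 14 counts in every library. At an unadjusted p under 0.05 with edgeR were 3 members, miR-142-3p, miR-142-5p and miR-146b-5p, all higher in QHMM. Of all names tested 13.7% lay under that value, 6.04% with a higher level in QHMM. miR-142-3p and miR-142-5p are arms of the same hairpin, as are miR-223-3p and miR-223-5p, so the members are not independent. In these 3 members the CPM of QHMM libraries all lay above those of STH libraries. CPM here leave out the library factors (TMM) that the edgeR test uses. Such a separation in CPM was found in this direction for 8.48% of the names tested, in the other direction for 8.71% and in either for 17.2%. The median log2 fold change (QHMM over STH) was 0.29 over the 7 members and 0.031 over all names tested, and 4 of the 7 members lay above 0, where 52.3% of all names did.

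miR-142-3p, the blood cell miRNA, was the member with the largest difference. It had 405, 492 and 606 CPM in QHMM replicates 1, 2 and 3, against 241, 218 and 282 CPM in STH replicates 1, 2 and 3. The lowest QHMM library lay well above the highest STH library. The log2 fold change was 1.03 (standard error 0.27, 95% interval 0.44 to 1.63), a 2.05-fold higher level with an adjusted p of 0.0796 from edgeR. With DESeq2, which called 3.85% of the names and 1.02% as higher in QHMM, the adjusted p was 0.0371. Without a filter on low counts it was 0.0286 with edgeR, where 64 of 9972 names were called, 16 of them higher in QHMM. Without QHMM replicate 1 it was 0.0448 with edgeR, where 31 of 1351 names were called, 2 of them higher in QHMM. The other 13 alternatives gave 0.0749 to 0.313.

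Its partner arm lay in the same direction. miR-142-5p had 147, 242 and 235 CPM in QHMM libraries, against 140.0, 125 and 122 CPM in STH libraries. Here the lowest QHMM library, replicate 1, was close to the highest STH library, replicate 1. Their TMM factors were 1.11 and 1.03, and scaling by them would reverse their order. The separation of the breeds for miR-142-5p therefore holds only in CPM without these factors. The log2 fold change was 0.71 (standard error 0.31, 95% interval 0.048 to 1.37, adjusted p = 0.336 from edgeR), which did not pass.

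The row that stood for miR-146b-5p, a brake on NF-kB signalling, had 37.2, 61.5 and 38.7 CPM in QHMM libraries. In STH libraries it had 30.7, 26.1 and 23.7 CPM. It is on chromosome 5, where the paired locus with the same sequence has its other arm listed as miR-146a-3p. Whether this row is miR-146a or miR-146b cannot be told from the names. QHMM replicate 2 stood above all others, and the breeds did not overlap. The log2 fold change of 0.80 (standard error 0.33, 95% interval 0.080 to 1.52) had an adjusted p of 0.324 from edgeR. It was 0.41 (standard error 0.31) without QHMM replicate 2. When rows were tested separately, the second chromosome 5 locus gave 0.86 (standard error 0.33) and the chromosome 22 locus 0.39 (standard error 0.42), with adjusted p of 0.269 and 0.745 from edgeR. The chromosome 22 locus had 20.7, 49.9 and 20.7 CPM in QHMM libraries, against 20.9, 18.1 and 33.3 CPM in STH libraries. At this locus the breeds overlapped, with QHMM replicate 2 again highest.

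The lymphocyte miRNA miR-150 had 1160.5, 949.8 and 795 CPM in QHMM libraries, against 918, 705 and 736 CPM in STH libraries. The breeds overlapped, and QHMM replicate 3, highest for miR-142-3p, was the lowest QHMM library for miR-150. Its log2 fold change was 0.29 (standard error 0.24, 95% interval -0.22 to 0.81, adjusted p = 0.625 from edgeR). miR-150 was also the tested member with the least spread between libraries apart from the scarce miR-223-5p: its SD over the 6 libraries was 0.27 on the log2(CPM + 1) scale, and 22.7% of the 537 names with a mean of at least 10 CPM varied less.

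miR-155-5p, the miRNA of activated lymphocytes and macrophages, had 24.5, 19.6 and 24.6 CPM in QHMM libraries, against 40.0, 24.0 and 23.5 CPM in STH libraries. STH replicate 1 stood above the other 5 libraries, which lay close together. The log2 fold change was -0.35 (standard error 0.31, 95% interval -1.02 to 0.31, adjusted p = 0.658 from edgeR), and -0.094 (standard error 0.35) without STH replicate 1.

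The myeloid miR-223-3p had 224, 93.1 and 126 CPM in QHMM libraries, against 122, 113 and 274 CPM in STH libraries. It was high in 1 library of each breed, QHMM replicate 1 and STH replicate 3, and the breeds overlapped. Its log2 fold change was -0.23 (standard error 0.37, 95% interval -1.03 to 0.58, adjusted p = 0.822 from edgeR) and changed sign to 0.27 (standard error 0.36) without STH replicate 3. The other arm, miR-223-5p, had 4.11, 2.51 and 2.82 CPM in QHMM libraries, against 3.82, 2.92 and 4.41 CPM in STH libraries. It was highest and lowest in the same libraries as miR-223-3p. For the myeloid member the SD over the 6 libraries on the log2(CPM + 1) scale was 0.61, and 82.5% of the names with a mean of at least 10 CPM varied less. For miR-142-3p the SD was 0.59, with 81.2% of the names below it.

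**Figure D2:**
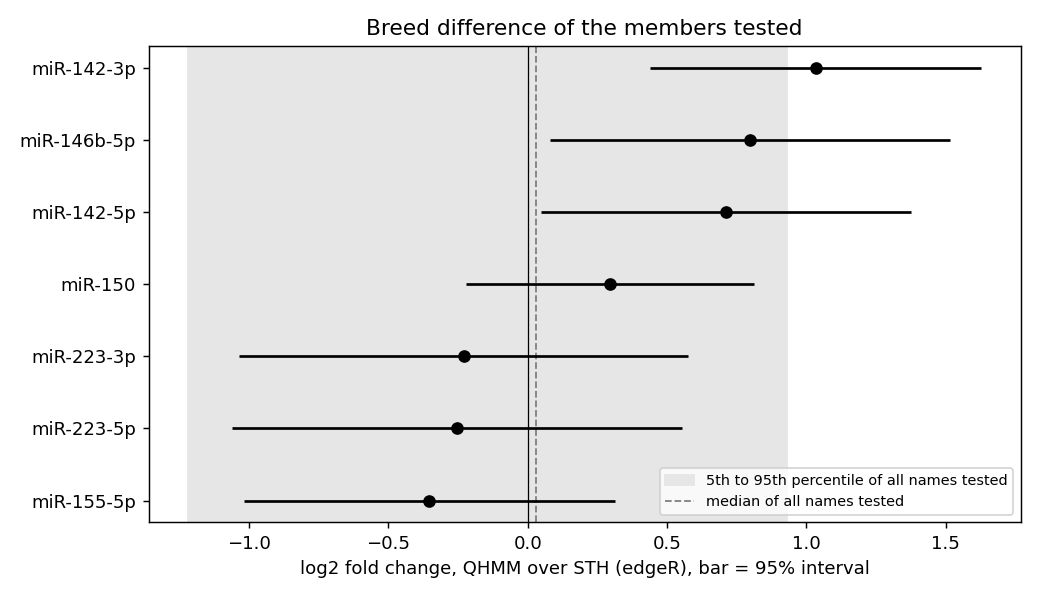
log2 fold change, QHMM over STH, of the 7 tested members from edgeR, with 95% intervals. The shaded band spans the 5th to 95th percentile of all names tested, -1.22 to 0.93, and the dashed line is their median, 0.031. miR-142-3p lies beyond the upper edge of the band and the other members lie inside it.

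Summed over the 13 names, members had 2004, 1861 and 1829 CPM in QHMM libraries, against 1495, 1215 and 1467 CPM in STH libraries. The means were 1898 ± 93.3 CPM in QHMM and 1392 ± 154 CPM in STH (SD, n = 3 each), and the breeds did not overlap. No test was made of this sum, since the names were chosen with earlier results known. miR-150 and the arms of miR-142 made up most of it, with miR-150 taking between 43.5% and 57.9% in QHMM libraries and between 50.2% and 61.4% in STH libraries. miR-142-3p took between 20.2% and 33.2% in QHMM libraries and between 16.1% and 19.2% in STH libraries. The mix of members therefore differed from library to library: miR-223-3p made up the smallest share of the sum in QHMM replicate 2 and the largest, 18.7%, in STH replicate 3.

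Members with opposite roles were set against each other within a library, which frees the ratio from the scaling of libraries. The counts of miR-155-5p over those of miR-146b-5p gave 0.658, 0.318 and 0.635 in QHMM libraries, against 1.30, 0.919 and 0.989 in STH libraries. The ratio was under 1 in the 3 QHMM libraries and in STH replicates 2 and 3, and the breeds did not overlap. It depended on the row taken for miR-146b-5p: with the chromosome 22 locus it was 1.19, 0.392 and 1.19 in QHMM libraries, against 1.92, 1.32 and 0.705 in STH libraries, and the breeds overlapped. With the 3 rows summed it lay between 0.114 and 0.263 in QHMM libraries and between 0.289 and 0.504 in STH libraries. The chromosome 5 pair in that sum carried the same sequence, with 1486 and 1442 counts. The same reads may therefore be counted more than once, which would give that sequence more weight. This ratio was picked after the values were known and was not tested. The ratio of miR-142-3p to miR-150 was 0.349, 0.518 and 0.763 in QHMM libraries, against 0.262, 0.308 and 0.383 in STH libraries. QHMM replicate 1 lay within the STH range here. The ratio of miR-223-3p to miR-142-3p was 0.554, 0.189 and 0.207 in QHMM libraries, against 0.506, 0.520 and 0.970 in STH libraries, again with QHMM replicate 1 among the STH values.

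Both arms of the miR-142 hairpin held many counts, whereas 1 arm held nearly all counts of miR-223, miR-155 and miR-150. miR-142-3p made up 73.3%, 67.0% and 72.1% of the counts of both arms in QHMM libraries, against 63.2%, 63.4% and 69.8% in STH libraries. The exact (Clopper-Pearson) 95% intervals of single libraries were at most a few points wide, for example 65.6% to 68.5% in QHMM replicate 2 and 68.2% to 71.4% in STH replicate 3, and cover counting error only. Those 2 libraries brought the breeds into overlap, with means of 70.8% ± 3.31 in QHMM and 65.5% ± 3.75 in STH (SD, n = 3 each). For miR-223 the 3p arm held 97.8% ± 0.415 in QHMM and 97.6% ± 0.737 in STH (SD, n = 3 each). For miR-155 the 5p arm held between 98.9% and 100% in each library. For miR-150 a single count fell on the other arm.

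**Figure D3:**
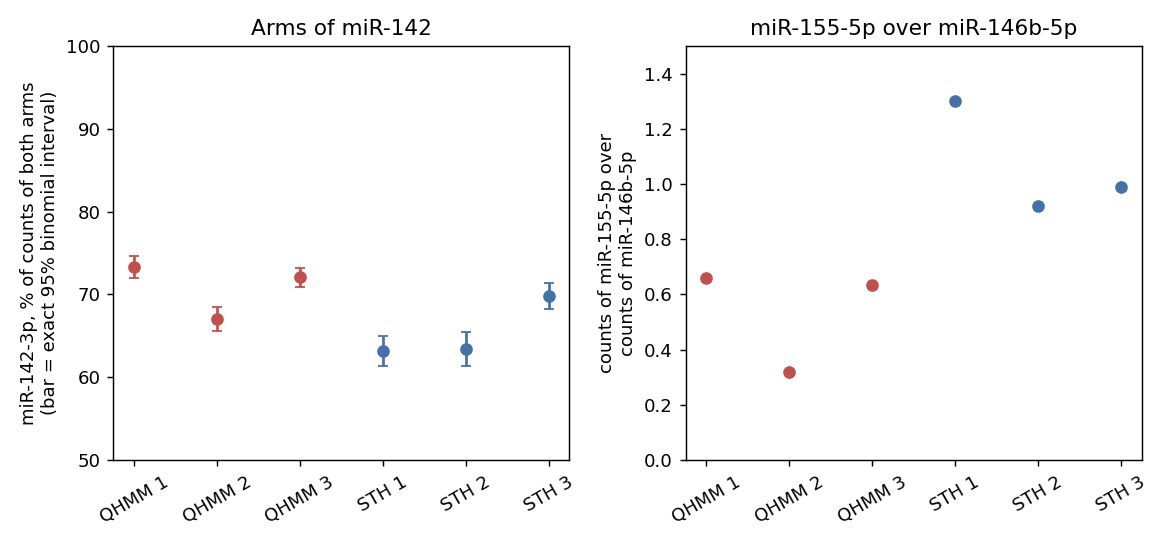
Left, miR-142-3p as a percentage of the counts of both miR-142 arms in each library (axis from 50% to 100%), with exact 95% binomial intervals. Right, counts of miR-155-5p over counts of miR-146b-5p (the chromosome 5 row that stood for the name). QHMM libraries are in red on the left of each panel and STH libraries in blue on the right: the arm shares overlap between 67.0% and 69.8%, and the ratio lies between 0.318 and 0.658 in QHMM and between 0.919 and 1.30 in STH.

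Markers of other cells in the sample were measured beside the members. Muscle fibre miRNAs were the most abundant of the marker lists, with miR-133 at a mean of 113352 CPM, and the labelled tissue is muscle. The name miR-1b, which that list leaves out, had a mean of 365665 CPM, against 392 CPM under the name miR-1-3p. The 7 names of the red blood cell list, all of them with at least 1 count, summed to between 18967 and 84308 CPM in QHMM libraries and between 7300 and 13838 CPM in STH libraries, so that this sum lay in the same direction as miR-142-3p. Nearly all of this sum was miR-451-5p, with 18703, 19640 and 82384 CPM in QHMM libraries, against 7083, 13597 and 8335 CPM in STH libraries. QHMM libraries also lay above STH libraries for miR-144-3p, while the breeds overlapped for miR-144-5p and miR-486. QHMM replicate 3 had the highest level of both the sum and miR-142-3p. Without this library the log2 fold change of miR-142-3p was 0.87 (standard error 0.29, adjusted p = 0.212 from edgeR). The part of the red blood cell names in the difference of miR-142-3p was otherwise not tested. The sum of the 4 endothelial names ran from 12781 to 27421 CPM in QHMM libraries and from 23285 to 25304 CPM in STH libraries. The 6 names of smooth muscle and pericytes summed to between 32472 and 44575 CPM in QHMM libraries and between 40233 and 53020 CPM in STH libraries, and the 3 fibroblast names to between 1982 and 2767 CPM in QHMM libraries and between 1887 and 3617 CPM in STH libraries. The 9 epithelial names summed to between 4.49 and 29.5 CPM in QHMM libraries and between 2.92 and 18.6 CPM in STH libraries.

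**Figure D4:**
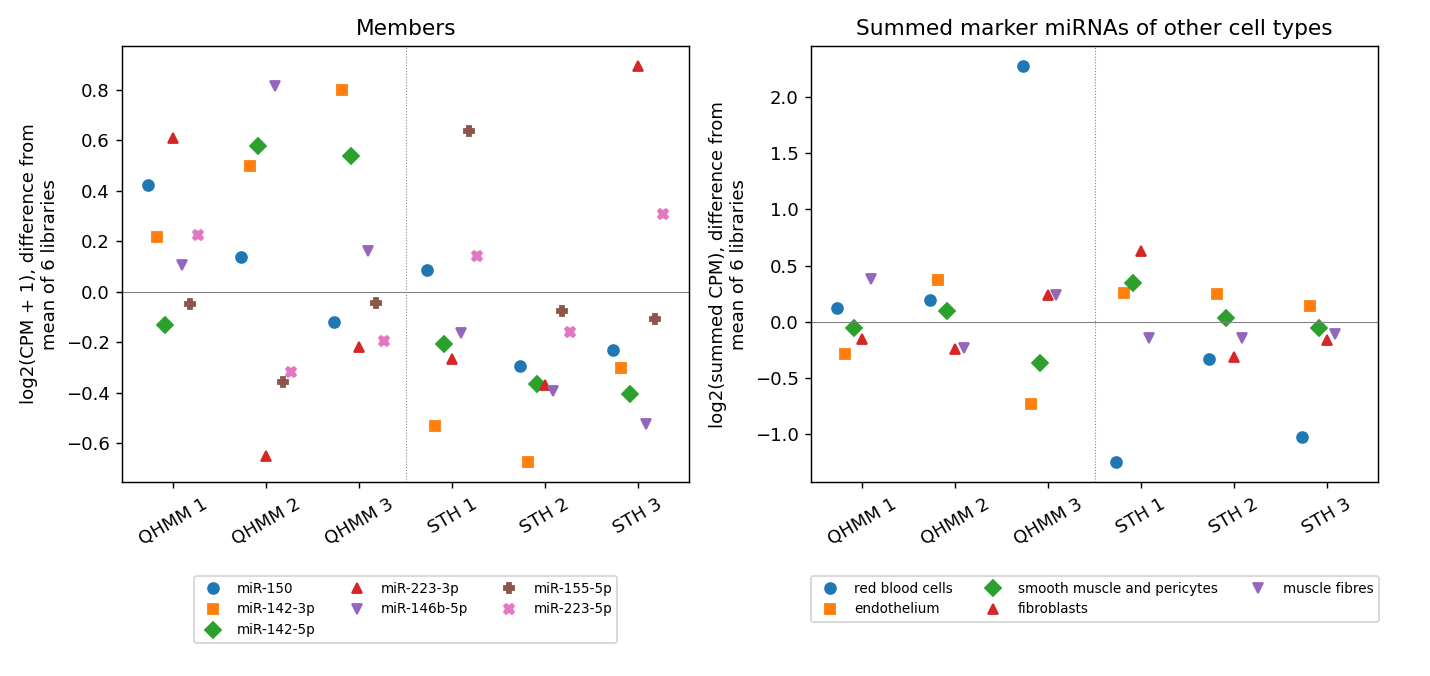
Left, difference of each tested member from its mean over the 6 libraries on the log2(CPM + 1) scale. Right, the same for the summed CPM of marker names of other cell types on the log2 scale (muscle fibres without miR-1b). Symbols are names or lists, and the dotted line parts QHMM from STH libraries. miR-142-3p lies above 0 in all QHMM and below 0 in all STH libraries, miR-223-3p is high in QHMM replicate 1 and STH replicate 3, and the red blood cell sum is highest in QHMM replicate 3.

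Other miRNAs known from white blood cells or cytokine responses were taken as a companion list of 44 names, many of which muscle and vessel cells also make. Of the 27 tested, 0 passed with edgeR or DESeq2, where 2.20% and 3.85% of all names tested passed. An unadjusted p under 0.05 was found for 0 with edgeR and 2 with DESeq2. Among all names tested this held for 13.7% with edgeR and for 153 of 1274 with DESeq2. The median log2 fold change of the 27 was -0.0067, with 13 values above 0 and 14 below, where 52.3% of all names tested lay above 0. The most abundant was miR-21, induced in injury and inflammation, with 7186, 11136 and 6283 CPM in QHMM libraries, against 30673, 20363 and 6913 CPM in STH libraries. STH replicates 1 and 2 lay above all QHMM libraries, and STH replicate 3 lay within the QHMM range. The difference was -1.21 on the log2 scale with a standard error of 0.58 and did not pass (edgeR, adjusted p = 0.429). It was -0.77 without STH replicate 1 and -1.61 without STH replicate 3, with adjusted p of 0.686 and 0.0625 from edgeR. miR-16b, miR-125b and miR-27a, which many tissues make, had log2 fold changes of 0.13, 0.14 and -0.091. The breeds did not overlap in 3 of the 27 names, miR-181b-5p and miR-15b-5p with QHMM above and miR-29b with STH above. Among all names tested they did not overlap in 17.2%.

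Names whose pattern over the 6 libraries was most like that of a member were sought among 531 other names with a mean of at least 10 CPM, by Pearson's r of log2(CPM + 1). For miR-142-3p the highest was miR-324-5p (r = 0.98), followed by 2 predicted sequences with no known name on chromosomes 2 and 9 (r = 0.98 and 0.94). miR-324-5p had 44.5, 52.8 and 54.4 CPM in QHMM libraries, against 37.6, 33.0 and 38.0 CPM in STH libraries. It was thus ordered much like miR-142-3p but with smaller differences. For miR-142-5p the closest were a predicted sequence on chromosome 4 (r = 0.95), the same one on chromosome 2 (r = 0.95) and miR-324-5p (r = 0.93). For miR-150 the closest were miR-532-5p (r = 0.94), miR-34a-5p (r = 0.94) and miR-193b-5p (r = 0.93). These values describe 6 libraries that share their totals, and with so many names compared some high r are found for any pattern.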

How the data were processed

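Small RNA of longissimus muscle was size-selected and read from 1 end with an Ion Proton sequencer. The authors deposited raw read counts per listed mature sequence, 1 column per library, without normalization. The build Oar_v3.1 and the tool DESeq are listed in the submitters' processing notes. The aligner, the miRNA caller and the handling of reads that match several sequences were not given in the sources used here. All value columns were mapped to samples by their labels. The labels give no batch or date.

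Species prefixes were removed from names, and of several rows with 1 name the row with most counts was used. The test between breeds was made in R 4.3.3 with edgeR 4.0.16 (robust quasi-likelihood test, TMM factors, filterByExpr, Benjamini-Hochberg adjustment over 1274 names, adjusted p under 0.05, no covariates, log2 fold change as QHMM over STH, standard error from the F statistic). DESeq2 1.42.0 was an alternative. Other values came from Python 3.11.15 with scipy 1.17.1. No 2 libraries of a breed were duplicates (smallest chi-square per degree of freedom 80.3). The fit was tested on simulated data. Members and lists were chosen with earlier results of these data known. Named were all members, the 4 most abundant companion names and any past the threshold, the most abundant markers and the 3 names most like each of the 3 most abundant members. miR-181b-5p, miR-15b-5p, miR-29b, miR-182 and miR-1b were named, and the test of all rows separately was added, after the data were seen.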

Additional observations from a re-analysis of the deposited data

How the results depend on the processing

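The 7 tested members kept the sign of their log2 fold change under all 16 alternatives, except miR-223-3p, which ranged over single libraries left out from -0.61 to 0.27 (without STH replicate 3). The count of members past the threshold, 0, was 1 (miR-142-3p) with DESeq2 and with no filter on low counts, and 0 to 1 on leaving out single libraries. The companion list had 2 with no filter (miR-15b-5p at 1.43 and miR-182 at -2.41), and its miR-16b, miR-125b and miR-27a changed sign without STH replicate 3, QHMM replicate 3 and STH replicate 1, over ranges of -0.025 to 0.35, -0.022 to 0.26 and -0.21 to 0.022 with single libraries left out. Over all names the 28 calls became 49 with DESeq2, 64 with no filter, 8 with at least 10 counts in every library, 6 with known names only, and 16 to 35 on leaving out single libraries (16 without QHMM replicate 3, 18 without STH replicate 2, 16 without STH replicate 3). With the replicate block they were 26, 22 of them shared, with 0 members. Same-numbered libraries correlated by 0.061, 0.24 and 0.12 in their deviations from the breed means. Every library correlated best with the one of its own number, for STH replicate 1 by 0.061 against 0.028 with QHMM replicate 3. Deviations from means of so few libraries are not independent, so these values cannot settle a pairing, which the design does not state. The summed CPM of members was 1367 in QHMM and 1002 in STH over all rows, 1427 and 1041 with rows of a name summed, both by larger denominators, and 1845 to 1932 and 1341 to 1481 when single libraries were dropped. The share of miR-142-3p was 69.6% to 72.7% in QHMM and 63.3% to 66.6% in STH with each library left out, and that of miR-223-3p 97.6% to 98.0% and 97.2% to 98.0%. Depth limits the 6 names with at most 11 counts.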

Other observations

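A shortened form of miR-142-3p of 17 nt, listed at a predicted locus on chromosome 10, had 61, 22 and 92 counts in QHMM libraries and 15, 17 and 40 counts in STH libraries. Tested as a row of its own it differed by 1.29 on the log2 scale, with a standard error of 0.45, and did not pass (edgeR, adjusted p = 0.214). Its bases are the first 17 of miR-142-3p, so that both rows can hold the same reads. A row on chromosome 12 that also carries the name differed from miR-142-3p by T1G and C12T and had 23 counts in all.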
